A study of Danio rerio with 4 samples.

Results

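Hatching enzymes are secreted proteases that soften the egg envelope so that a fish larva can leave it. The genes described are the rows of the deposited zebrafish (Danio rerio) table whose symbol starts with he1 or c6ast. These are 4 of 19924 features: the hatching enzyme genes he1.1 (ENSDARG00000023656) and he1.2 (ENSDARG00000019122), and the six-cysteine containing astacin protease genes c6ast4 (ENSDARG00000052578) and c6ast3 (ENSDARG00000024503). The study sequenced RNA from 4 libraries of embryos at 3 days post fertilization, all from 1 pair of parents heterozygous for cpa1 and cpa5, which code for digestive carboxypeptidases. The 2 sibling libraries carry the genotype label WT, and the 2 double knockout libraries are labelled as knockouts of both genes. Each group holds the replicate numbers 3 and 4, so the libraries are called sibling 3, sibling 4, knockout 3 and knockout 4 where levels are listed. The head of each fish was used for genotyping and the tail part for RNA, and the number of fish per library is not stated. Beyond the label WT, it is not stated whether siblings carried a mutant allele.

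Astacins are zinc-dependent proteases that are made as inactive precursors. In the zebrafish embryo, he1.1 and he1.2 are made by the hatching gland, a transient group of secretory cells that lies over the anterior yolk and the pericardium, stores the enzyme in granules and releases it at hatching. The hatching gland also makes ctslb, a cathepsin L protease gene long used as its marker. The six-cysteine astacins are a branch of the family in fish, named for their cysteines. The deposited table assigns the astacin domain to 8 features in all, among them the 4 genes described here. It gives both c6ast genes, as their closest curated protein, the low choriolytic enzyme of medaka, which takes part in hatching in that species.

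The genes lie in tandem groups. In the RefSeq gene order of the GRCz12tu assembly, he1.1, he1.2 and he1.3 follow each other on chromosome 22, and c6ast4, c6ast3, the astacin gene npsn and c6ast1 follow each other on chromosome 7. he1.3 and c6ast1 are not analysed here. Tandem copies can share reads, and the treatment of such reads in the counting is not stated, so the split between he1.1 and he1.2 and between c6ast4 and c6ast3 is uncertain. All 4 genes passed the filter on low counts.

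The libraries held 25623442 counts (sibling 3), 32248878 (sibling 4), 24769258 (knockout 3) and 35343524 (knockout 4). The targeted gene cpa5 was read at 2079 and 397 counts in the siblings and at 19 and 15 counts in the knockouts, while cpa1 is not analysed here. Libraries of the same replicate number were the most alike, with Pearson correlations of log2 CPM across features of 0.965 (number 3) and 0.978 (number 4), against 0.923 for the sibling pair and 0.932 for the knockout pair. These are correlations across features, which are not independent. Each value is therefore given by library and the genotypes are also set side by side within each number. Levels are in CPM (counts relative to the library total, scaled with TMM factors), and intervals around a single library cover counting error only. Separate pools or clutches are not documented, so the p-values rest only on the spread of these libraries, and part of that spread may be technical. The spread used in the tests is partly shared across features, since 4 libraries give little information per gene.

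The hatching enzyme gene he1.1 was at 4.48 CPM in sibling replicate 3 and 46.2 CPM in sibling replicate 4, and at 0.27 CPM in knockout replicate 3 and 15.1 CPM in knockout replicate 4. These levels rest on 115, 1456, 7 and 521 counts. From high to low the order was sibling 4, knockout 4, sibling 3 and knockout 3, and the exact Poisson 95% intervals of neighbours in this order did not overlap (43.9 to 48.6, 13.8 to 16.5, 3.7 to 5.38 and 0.109 to 0.556 CPM). Both replicate 4 libraries thus lay above both replicate 3 libraries, and within each number the knockout lay below the sibling.

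Its tandem neighbour he1.2 had the same order of libraries at a lower level. It was at 1.52, 11, 0.0771 and 4.06 CPM in sibling 3, sibling 4, knockout 3 and knockout 4, from 39, 347, 2 and 140 counts. The count of 2 in knockout replicate 3 is under the 3 counts that a count of 0 would allow, so the gene is near the limit of detection there.

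**Figure D1:**
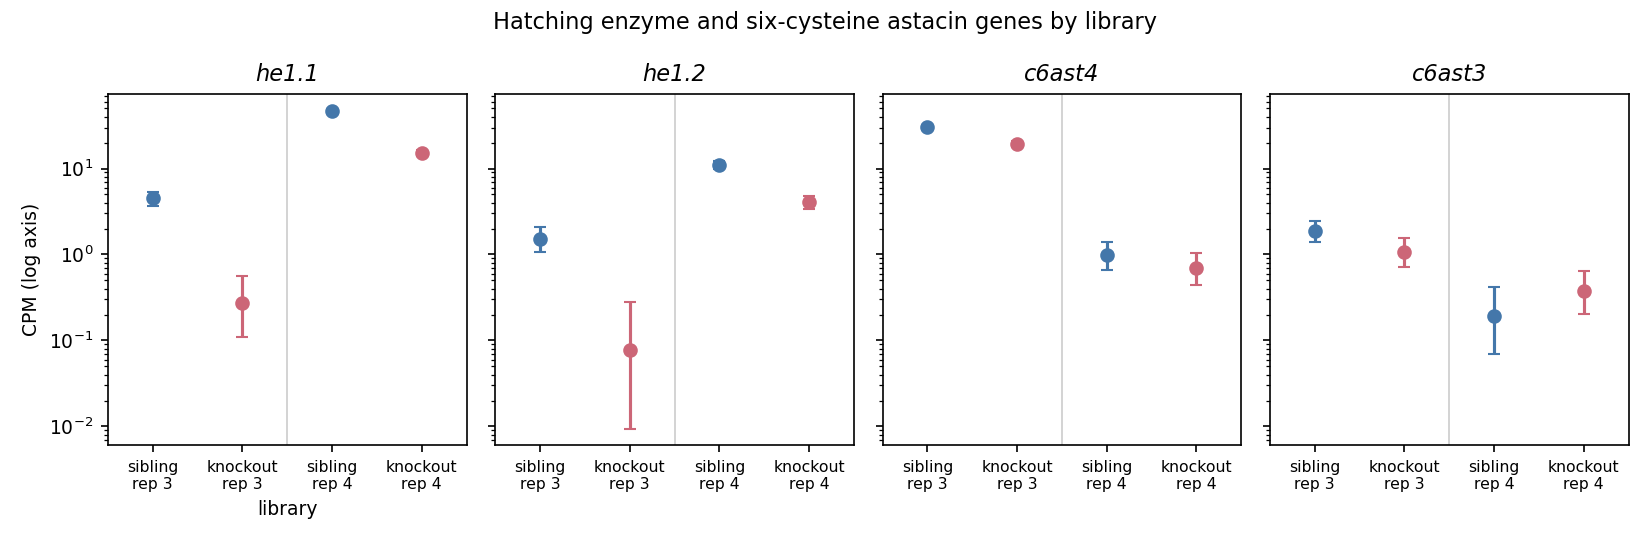
Level of each gene in CPM on a log axis (y) in the 4 libraries (x), with siblings in blue and double knockouts in red; bars are exact Poisson 95% intervals of the count, which cover counting error only. The he1 genes are higher in the replicate 4 libraries (he1.1 at 46.2 and 15.1 CPM) than in the replicate 3 libraries (4.48 and 0.27 CPM), and the c6ast genes have the opposite order.

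The c6ast genes were distributed the other way. c6ast4 was at 30.1 CPM in sibling replicate 3 and 19.4 CPM in knockout replicate 3, but at 0.984 and 0.695 CPM in sibling and knockout replicate 4 (772, 503, 31 and 24 counts). The Poisson intervals of the replicate 3 libraries did not overlap (28 to 32.3 and 17.7 to 21.2 CPM), whereas those of the replicate 4 libraries did (0.668 to 1.4 and 0.446 to 1.03 CPM). c6ast3 was at 1.87 and 1.08 CPM in sibling and knockout replicate 3 and 0.19 and 0.377 CPM in sibling and knockout replicate 4. These come from 48, 28, 6 and 13 counts, and the intervals overlapped between genotypes in both numbers.

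On a scale per length, the deposited FPKM, the order of he1.1 and c6ast4 differed between the replicate numbers. In sibling replicate 4 he1.1 was at 34.4 FPKM and c6ast4 at 0.807 FPKM, a ratio of 42.6, and in knockout replicate 4 the levels were 11.2 and 0.532 FPKM, a ratio of 21. In the replicate 3 libraries c6ast4 was the higher of the pair, by a ratio of 7.59 in the sibling (26.2 against 3.45 FPKM) and 85.3 in the knockout (18 against 0.211 FPKM). Among all features of its library, he1.1 stood at percentile 94 of FPKM in sibling 4 and at percentile 1.23 in knockout 3, and c6ast4 at percentile 91.7 in sibling 3 and percentile 9.56 in knockout 4.

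The proportion of each he1 gene varied less than the level did. he1.1 made up 74.7% of the counts of both he1 genes in sibling replicate 3 (Wilson 95% interval 67.3% to 80.9%), 80.8% in sibling replicate 4 (78.9% to 82.5%), 77.8% in knockout replicate 3 (45.3% to 93.7%, from 9 counts) and 78.8% in knockout replicate 4 (75.5% to 81.8%). These intervals overlap, over a range of summed levels from 0.347 to 57.2 CPM. For the c6ast genes the share of c6ast4 was 94.1% and 94.7% in sibling and knockout replicate 3 (92.3% to 95.6% and 92.5% to 96.3%), 83.8% in sibling replicate 4 (68.9% to 92.3%) and 64.9% in knockout replicate 4 (48.8% to 78.2%), each of the last 2 from 37 counts. In knockout replicate 4 the interval lay below those of both replicate 3 libraries.

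Double knockouts were then compared with siblings over all 4 libraries. The group means of he1.1 were 25.3 ± 29.5 CPM in siblings and 7.68 ± 10.5 CPM in knockouts (SD, n = 2), and the log2 fold change, knockout over sibling, was -1.71 ± 1.83 (SE, edgeR quasi-likelihood, adjusted p = 1). he1.2 was at 6.27 ± 6.71 and 2.07 ± 2.81 CPM (-1.58 ± 1.64, edgeR adjusted p = 1). c6ast4 was at 15.5 ± 20.6 and 10 ± 13.2 CPM (-0.63 ± 1.94, edgeR adjusted p = 1), and c6ast3 at 1.03 ± 1.19 and 0.728 ± 0.497 CPM (-0.5 ± 1.17, edgeR adjusted p = 1). For each of the 4 genes the difference in means was smaller than the sibling SD. For he1.1 and he1.2 it was larger than the knockout SD, and both SDs include the difference between replicate numbers.

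None of the 4 genes was called. Over all features edgeR called 0% lower and 0 features in all. It had 100 features at an unadjusted p below 0.05, of which 0 were among the 4 genes. The targeted gene cpa5, low in both knockout libraries, was thus missed by edgeR as well. Replicate number was not a term of that fit, so the spread between numbers counted as error. The lack of an edgeR call therefore does not show that the 4 genes are equal between genotypes. DESeq2 called 19 features and 0 of the 4. The authors' deposited table lists he1.1 at a log2 fold change of -1.72 with an adjusted p of 1. In 0 of the 4 genes did both knockout libraries lie below both sibling libraries, against 9.01% of all features. Leaving out 1 library unbalances the replicate numbers and turned the direction: without sibling replicate 4 he1.1 was at 0.79 and he1.2 at 0.46, without sibling replicate 3 c6ast4 was at 3.34 and c6ast3 at 1.89, and without knockout replicate 4 c6ast4 was at 0.33 and c6ast3 at 0.1. Without knockout replicate 4 the he1 genes were at -6.52 and -6.26, and without knockout replicate 3 at -0.75 and -0.63, while c6ast4 was then at -4.47 and c6ast3 at -1.42; without sibling replicate 3 he1.1 was at -2.57 and he1.2 at -2.39, and without sibling replicate 4 c6ast4 was at -1.58 and c6ast3 at -1.37. limma-voom gave 0.11 for c6ast3.

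Within each replicate number the hatching enzymes were lower in the knockout library than in its sibling library. he1.1 was 16.6-fold lower in number 3 (exact 95% counting interval 7.81 to 42.2) and 3.06-fold lower in number 4 (2.77 to 3.39). he1.2 was 19.7-fold lower in number 3, with an interval of 5.1 to 169 since it rests on 2 counts, and 2.71-fold lower in number 4 (2.22 to 3.33). These ratios compare single libraries and not conditions, and they have no replicate check.

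The c6ast genes differed less between libraries of a number. c6ast4 was 1.55-fold lower in the knockout in number 3 (1.39 to 1.74) and 1.41-fold lower in number 4, where the interval of 0.803 to 2.52 includes no difference. c6ast3 was 1.73-fold lower in number 3 (1.07 to 2.87) and higher in the knockout in number 4, by a ratio of 1.98 with an interval of 0.702 to 6.35. In all, 3 of the 4 genes were lower in the knockout within both numbers, as were 26.4% of all features. By log2 CPM with a prior count of 2, the number 3 difference was -3.75 for he1.1 and -3.45 for he1.2, with 42 and 47 of the 19924 features lower still, and the number 4 difference was -1.61 and -1.43, with 68 and 74 features lower.

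**Figure D2:**
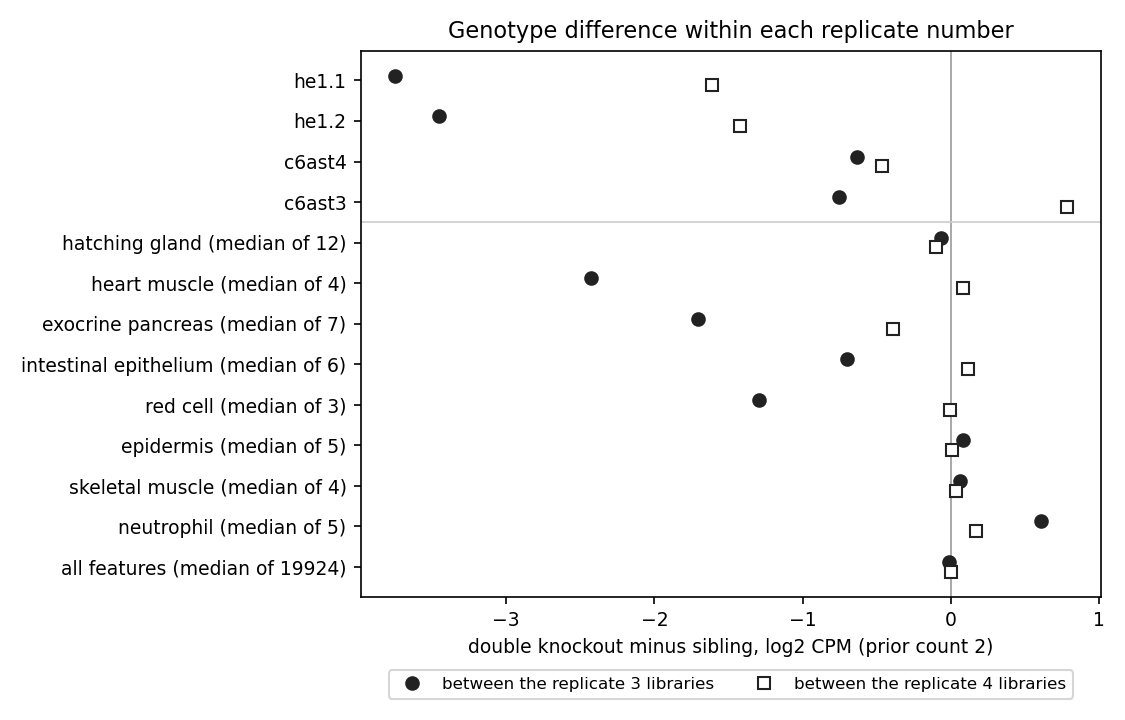
Double knockout minus sibling in log2 CPM with a prior count of 2 (x), between the 2 replicate 3 libraries (filled circles) and between the 2 replicate 4 libraries (open squares), for the 4 genes and for the medians of marker lists and of all features (y); there are no error bars because each point compares 2 libraries. The he1 genes are at -3.75 and -3.45 in number 3 and at -1.61 and -1.43 in number 4, while the heart muscle median is at -2.43 in number 3 and 0.08 in number 4.

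Replicate number separated the genes, in a comparison chosen with earlier results of these data known. With genotype as a term, edgeR called he1.1 and he1.2 higher in the replicate 4 libraries, at log2 fold changes of 3.99 ± 0.45 (adjusted p = 0.0117) and 3.53 ± 0.53 (adjusted p = 0.0209). It called c6ast4 and c6ast3 lower there, at -4.87 ± 0.16 (adjusted p = 0.00146) and -2.32 ± 0.53 (adjusted p = 0.0493). With 31 and 24 counts in the replicate 4 libraries, the standard error of c6ast4 is smaller than counting error alone and overstates the precision. Of all features 6.99% were called higher and 8.16% lower in the replicate 4 libraries, and 37 features had a larger positive difference than he1.1 and 24 a larger negative one than c6ast4. DESeq2 called 3 of the 4 genes and not c6ast3 (adjusted p = 0.0925). Of all 19924 features it called 938 higher and 1174 lower in the replicate 4 libraries. Without the genotype term, the edgeR adjusted p was 0.0519 for he1.1 and 0.0626 for he1.2. What the number stands for is not given in the labels, so this comparison says only that the libraries of number 4 differ from those of number 3.

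By genotype, he1.1 was 10.3-fold higher in replicate 4 than in replicate 3 among siblings (95% counting interval 8.52 to 12.6) and 55.9-fold among knockouts (27 to 140). c6ast4 was 30.6-fold lower in replicate 4 among siblings (21.4 to 45.4) and 27.9-fold among knockouts (18.5 to 43.9). c6ast3 was 9.83-fold lower among siblings (4.2 to 28.1) and 2.87-fold lower among knockouts (1.44 to 6.03).

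**Figure D3:**
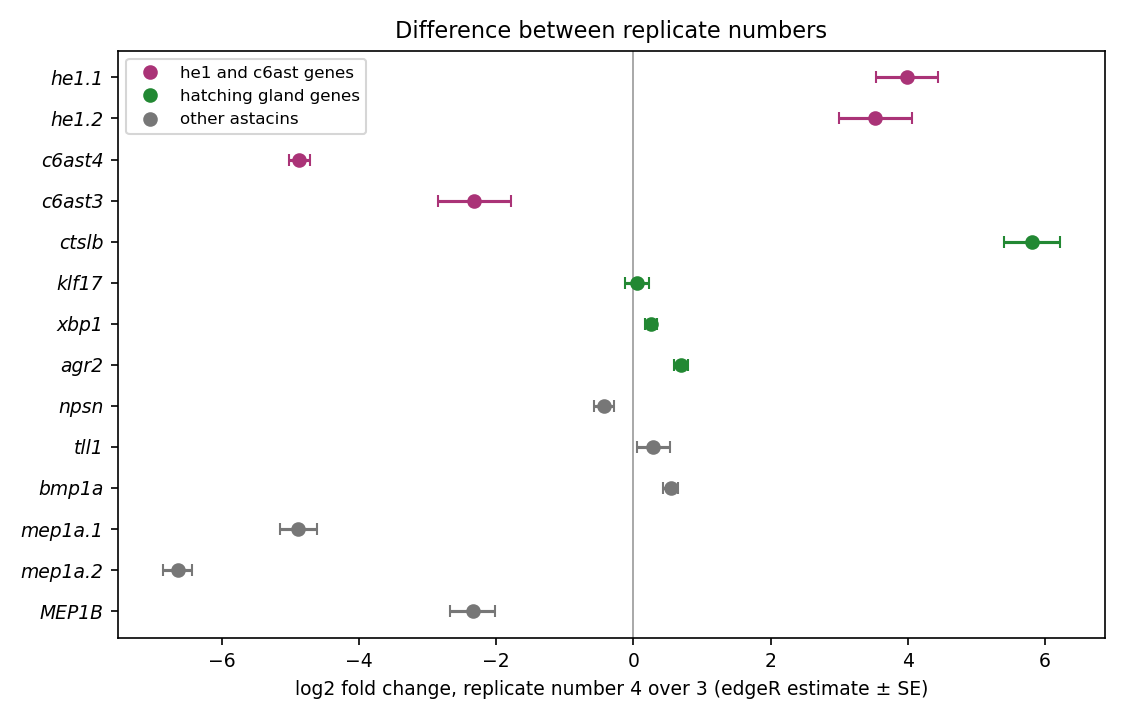
Log2 fold change of replicate number 4 over 3, edgeR estimate with its standard error (x), for the he1 and c6ast genes (purple), 4 hatching gland genes (green) and 6 other astacin genes (grey). The bars come from the test statistic and are narrower than counting error alone for c6ast4 and mep1a.2. he1.1 (3.99), he1.2 (3.53) and ctslb (5.81) lie to the right, and c6ast4 (-4.87), c6ast3 (-2.32) and the meprin genes lie to the left. klf17 and xbp1, which were not picked by p, lie near 0. The hatching gland list members hspa5 (1.68) and creb3l1 (0.63), both called higher by edgeR, are not shown.

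Among the other genes of the hatching gland list, 12 of 13 were measured and 0 passed the test between genotypes, with a median log2 fold change of -0.08 against -0.01 over all features. The cathepsin gene ctslb was at 1.05, 48.1, 0 and 6.84 CPM in sibling 3, sibling 4, knockout 3 and knockout 4 (27, 1517, 0 and 236 counts). Its knockout level was 7.04-fold lower in number 4. In number 3, with 3 counts taken as the floor of the knockout library, it was 9.1-fold lower. That value leaves out the counting error of the 27 sibling counts, so it is not a lower bound. The exact Poisson intervals were 0.694 to 1.53 CPM in sibling 3 and 0 to 0.142 CPM in knockout 3. Over all 4 libraries the log2 fold change of ctslb was -2.83 ± 2.34 (edgeR adjusted p = 1), and 1.71 without sibling replicate 4. Between replicate numbers, against 6.99% of all features called higher and 8.16% lower, edgeR called 4 list members higher in number 4 and 0 lower. They were ctslb (5.81 ± 0.41, adjusted p = 0.00518), the endoplasmic reticulum chaperone gene hspa5 (1.68 ± 0.09, adjusted p = 0.00335), agr2, coding for a disulfide isomerase of secretory cells (0.7 ± 0.1, adjusted p = 0.0194), and creb3l1, a transcription factor gene of secretory cells (0.63 ± 0.14, adjusted p = 0.0441). creb3l1 was not called by DESeq2 (adjusted p = 0.0918).

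Several transcription and secretion genes of the gland that other tissues also use spanned a narrower range than ctslb. The secretion gene hspa5 ranged more widely than those below, at 259, 841, 254 and 806 CPM in sibling 3, sibling 4, knockout 3 and knockout 4. klf17, a transcription factor gene needed for the gland, was at 5.97, 6.6, 6.13 and 6 CPM in sibling 3, sibling 4, knockout 3 and knockout 4. xbp1, a regulator of secretory capacity, was at 186, 228, 182 and 212 CPM in the same order. agr2, at 27.8, 47.1, 25.6 and 39.7 CPM, prdm1a, a transcription factor gene that directs cells to the gland, at 15.8, 23.6, 17 and 19 CPM, and the translocon gene sec61a1 at 295, 366, 275 and 338 CPM differed between genotypes by log2 values of -0.2 ± 0.36, -0.13 ± 0.26 and -0.11 ± 0.21 (edgeR adjusted p = 1 for each). Without sibling 4 these values were 0.24, 0.19 and 0.061, and without knockout 3 agr2 was at 0.084 and sec61a1 at 0.032. In bulk tissue, fewer gland cells and less RNA per cell cannot be told apart.

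The features whose libraries were most like those of he1.1 came from several tissues. Likeness was measured as the Euclidean distance of log2 CPM centred over the 4 libraries, among 17371 Ensembl genes with a mean of at least 1 CPM. The nearest was he1.2 (distance 0.651), followed by zgc:174153, which the deposited table matches to cathepsin L (0.834), the collagen X gene col10a1a of skeletal tissue (1.257), the cardiac myosin light chain gene cmlc1 (1.46), si:ch211-222k6.3 (1.55) and zgc:136254, which matches a fish-egg lectin (1.61). ctslb was at rank 11 (1.85), between the heart genes nppa (rank 10, 1.79) and myl7 (rank 13, 2.14). Other genes of the hatching gland list were further away, with agr2 at rank 1021 (4.62), xbp1 at rank 4317 (5.03) and klf17 at rank 7637 (5.22). col10a1a was at 5.81 and 67.5 CPM in the siblings and at 0.424 and 57.6 CPM in the knockouts, so its replicate 4 libraries were closer together than those of he1.1.

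The deposited table matches 6 features to cathepsin L, a group chosen after the values were seen. Of these, edgeR called 4 higher and 1 lower in replicate number 4, against 6.99% and 8.16% of all features. The features called higher were ctslb, zgc:174153, zgc:174855 and si:dkey-239j18.3. zgc:174153 was at 34, 608, 0 and 113 counts in sibling 3, sibling 4, knockout 3 and knockout 4. In the same order zgc:174855 was at 0, 451, 0 and 36 counts, and si:dkey-239j18.3 at 12, 803, 0 and 343 counts. Each of the 4 was at 0 counts in knockout replicate 3, and in replicate 4 each was lower in the knockout than in the sibling. None was called between genotypes by edgeR (adjusted p = 1). Related cathepsin genes can also share reads.

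Markers of heart muscle, which lies beside the gland, had the same order as the he1 genes between replicate numbers. Of 5 heart genes 4 were measured (vmhc was not) and edgeR called 4 higher in number 4, against 6.99% of all features. Their summed level was 3.63, 53.4, 0.733 and 56.7 CPM in sibling 3, sibling 4, knockout 3 and knockout 4, with none at 0 in a library. myl7, the atrial and ventricular light chain gene used to mark heart muscle, was at 18 and 611 counts in siblings and 2 and 711 counts in knockouts. Between the replicate 3 libraries the heart sum was thus 4.95-fold lower in the knockout, and between the replicate 4 libraries it was higher in the knockout by a ratio of 1.06, where the he1 sum was 2.99-fold lower. Relative to the heart sum, in a ratio chosen after the values were seen, the he1 sum was at 1.66 and 0.474 in sibling and knockout replicate 3, and at 1.07 and 0.338 in sibling and knockout replicate 4. The ratio was 3.5-fold lower in the knockout in number 3, where it rests on 9 he1 counts and on 2 to 12 counts per heart gene in knockout 3, and 3.17-fold lower in number 4. Relative to the gland marker ctslb the order in number 4 was the other way, with the he1 sum at 1.19 times ctslb in sibling 4 and 2.8 times in knockout 4. ctslb had 0 counts in knockout 3, so there is no such ratio in number 3. The part of anterior tissue in these values was not tested.

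**Figure D4:**
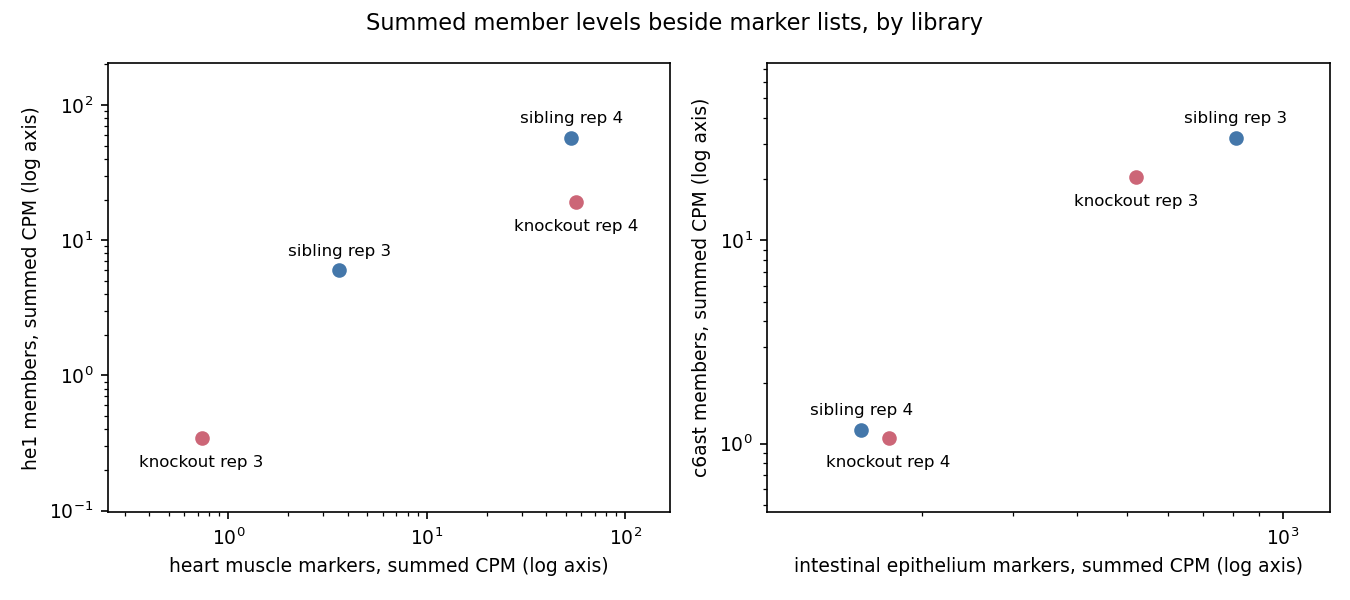
Summed CPM of the he1 genes against summed CPM of 4 heart muscle markers (left) and of the c6ast genes against 6 intestinal markers (right), on log axes, 1 point per library, siblings in blue and double knockouts in red. On the left the replicate 4 libraries share a heart level (53.4 and 56.7 CPM) and differ in he1 level (57.2 and 19.2 CPM); on the right both sums are higher in the replicate 3 libraries.

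Other tissues that the tail part could hold differed between libraries in their own ways. Skeletal muscle and epidermis lists had medians of 0.06 and 0.09 between the replicate 3 libraries and 0.04 and 0.01 between the replicate 4 libraries, knockout minus sibling in log2 CPM. Between replicate numbers edgeR called 4 of 5 epidermis genes and 1 of 4 skeletal muscle genes higher in number 4, the direction of the he1 genes. The share of all features called there was 6.99% higher and 8.16% lower. The red cell list had knockout minus sibling medians of -1.3 in number 3 and -0.0028 in number 4. Of its 3 members 0 were called between replicate numbers. Of the 5 retina and brain markers, gfap and elavl3, which the spinal cord also expresses, were measured, at summed levels of 563 to 656 CPM, and rho, opn1sw1 and atoh7 were not. The part of these differences in the he1 values was not tested.

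The genes nearest to c6ast4 in pattern included digestive enzyme genes. The features most like c6ast4 were ctrl, a chymotrypsin-like protease gene (distance 0.441), the amylase-like zgc:92137 (0.524), the sulfotransferase gene sult1st2 (0.636), the carboxypeptidase O gene cpo (0.651), si:ch211-214p16.3, which matches phospholipase B1 (0.652), and the elastase gene ela3l (0.728). edgeR called all 6 lower in replicate number 4, at log2 fold changes from -5.12 (ela3l) to -4.29 (si:ch211-214p16.3). They were picked for likeness to c6ast4 over these same libraries, so this direction follows from the choice. ctrl was at 57.3, 1.97, 27.9 and 1.59 CPM in sibling 3, sibling 4, knockout 3 and knockout 4. c6ast3, with a mean under 1 CPM, was not ranked.

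Marker lists of intestine and pancreas were high in the same libraries as c6ast4. For the calls below, the share of all features called by edgeR was 8.16% lower and 6.99% higher in number 4. The intestinal list summed to 812 and 519 CPM in sibling and knockout replicate 3 and to 152 and 172 CPM in replicate 4, with 4 of 6 members called lower in number 4 and 0 higher. The peptide transporter gene slc15a1b, of the intestinal brush border, was at 29.2, 2, 25.3 and 2.2 CPM in sibling 3, sibling 4, knockout 3 and knockout 4. The members not called were cdx1b, at 20.7, 13, 13.5 and 11 CPM in the same order, and apoa4a. apoa4a went the other way, at 12.2, 16.3, 4.74 and 11.7 CPM. The exocrine pancreas list summed to 924 and 297 CPM in sibling and knockout replicate 3 and to 94.8 and 73.7 CPM in replicate 4, with 7 of 7 members called lower in number 4. The c6ast sum came to 3.94% of the intestinal sum in sibling replicate 3 and to 3.94% in knockout replicate 3, and to 0.771% and 0.622% in sibling and knockout replicate 4. Against the pancreas sum it came to 3.46% and 6.9% in replicate 3 and to 1.24% and 1.45% in replicate 4. The c6ast sum thus differed more between numbers than the intestinal sum did, and less than the sum of the 3 meprin genes, of which it made 65.5% (sibling 3), 41.9% (knockout 3), 90.2% (sibling 4) and 67.3% (knockout 4). These ratios were chosen after the values were seen. Which cells carry the c6ast transcripts was not tested.

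Of the other astacins, 6 of 19 listed genes were measured and 0 were called between genotypes, with a median log2 fold change of 0.03. Between replicate numbers edgeR called 3 lower in number 4, all coding for meprins, astacins of the intestinal and kidney brush border, and 1 higher. Over all features 8.16% were called lower and 6.99% higher. mep1a.2 was at 27.6, 0.349, 30.8 and 0.232 CPM in sibling 3, sibling 4, knockout 3 and knockout 4 (log2 fold change -6.64 ± 0.22, edgeR adjusted p = 0.00146). mep1a.1 was at 17.6, 0.412, 15.5 and 0.695 CPM (-4.88 ± 0.27, edgeR adjusted p = 0.00335) and MEP1B at 3.66, 0.539, 2.58 and 0.666 CPM (-2.34 ± 0.33, edgeR adjusted p = 0.0186). These meprin genes had the same order of replicate numbers as c6ast4 and c6ast3. In likeness to c6ast4, mep1a.1 was at rank 11 (distance 0.86), mep1a.2 at rank 53 (1.71) and MEP1B at rank 144 (2.58). The intestinal genes slc15a1b and anpepb were at rank 21 (1.22) and rank 54 (1.71).

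The gene called higher was bmp1a, a procollagen C-proteinase of the tolloid group, at 49.1, 66.6, 42.4 and 66.4 CPM in the same order (0.54 ± 0.11, edgeR adjusted p = 0.0369). tll1, another tolloid gene, was at 1.83, 2.22, 2.2 and 2.72 CPM. Nephrosin, coded by npsn beside c6ast3 on chromosome 7 and known from neutrophils, was at 21.7, 19, 33.6 and 21.4 CPM. Its log2 fold change was 0.43 ± 0.28 between genotypes (edgeR adjusted p = 1) and -0.43 ± 0.14 between numbers (edgeR adjusted p = 0.108), so neither difference passed. The astacin beside the c6ast genes therefore did not share their range over the libraries, at 19 to 33.6 CPM against 0.695 to 30.1 CPM for c6ast4. Between genotypes tll1 was at 0.28 ± 0.29, MEP1B at -0.37 ± 1.1 and bmp1a at -0.09 ± 0.3 (edgeR adjusted p = 1 for each). MEP1B turned to 1.57 without sibling replicate 3 and to 0.32 without knockout replicate 4, and bmp1a to 0.15 without sibling replicate 4 and to 0.2 without knockout replicate 3.

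Genes for inhibitors in the plasma were lower in both knockout libraries than in both sibling libraries in 3 of the 3 measured members, against 9.01% of all features, but 0 passed the adjusted test. fetub codes for fetuin-B, which in the mouse inhibits the astacin of the egg, ovastacin. It was at 871, 962, 326 and 563 CPM in sibling 3, sibling 4, knockout 3 and knockout 4 (log2 fold change -1.04 ± 0.31, edgeR adjusted p = 1), and at -1.48 to -0.7 with each library left out in turn. ahsg1, a related fetuin gene, was at -1.68 ± 0.41 and a2ml, of the alpha-2-macroglobulin family, at -0.62 ± 0.23 (edgeR adjusted p = 1 for both). The liver makes these plasma proteins. Between replicate numbers edgeR called 0 of the 3 genes, against 6.99% of all features called higher and 8.16% called lower in number 4. The log2 fold changes of number 4 over 3 were 0.46 ± 0.17 for fetub, 0.36 ± 0.09 for a2ml and -0.09 ± 0.38 for ahsg1. The 22 egg envelope genes listed are not analysed here.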

How the data were processed

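RNA libraries were made from 500 ng of total RNA with an mRNA kit, per the labels' protocols. The submitters' processing notes name HISAT2 2.2.1, DESeq2 1.26.0 and the GRCz11 build, and no source used here states the counting tool, its annotation or its use of strand. Per the file headers, the authors deposited raw read counts and FPKM per feature and library, and their own log2 fold changes with p-values of mutant over sibling. The table starts above a minimum, since no feature had a highest count below 26.

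Counts were fitted over all features with edgeR 4.0.16 (quasi-likelihood, TMM, filterByExpr, which removed 0 features) (R 4.3.3), and p-values were adjusted by Benjamini-Hochberg and called below 0.05. Genotype was fitted without covariate, and replicate number with genotype as a term. A standard error is the fold change over the root of the F statistic. It can fall below counting error where counts are low, as between replicate numbers for c6ast4, mep1a.2 and ctsbb. The biological coefficient of variation was 32.6% with genotype as the only term, so it includes the difference between replicate numbers. The fits were repeated with RLE factors, with total counts, with 2 other filters, by DESeq2 1.42.0, by limma 3.58.1 (voom, and log2(FPKM + 1)), with a replicate block, without each library in turn, and without the genotype term. The edgeR, DESeq2 and limma tests were tested on simulated data. The simulated genotype comparison held no difference between replicate numbers, so it does not show how that test performs on these libraries. For limma the simulation used voom and log2 CPM, and not log2(FPKM + 1). Poisson, binomial and Wilson 95% intervals cover counting error only.

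The genes, the lists and the comparison of replicate numbers were chosen with earlier results of these data known. By rule, all he1 and c6ast genes are named, and up to 4 members with the smallest p per list and comparison. The 6 features nearest to the most abundant he1 and c6ast gene are named too. klf17, xbp1, ctss2.2 and single members of other tissue lists were named outside this rule. Cathepsin L matches and the sums beside marker lists were added after the values were seen. Lists of other tissues are described by sums, medians and counts, with single members given as examples.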

Additional observations from a re-analysis of the deposited data

How the results depend on the processing

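For the genotype comparison edgeR called 0 features, and also with RLE factors, total counts, either other filter, limma-voom, limma on log2(FPKM + 1) and any 1 library left out. DESeq2 called 19 and the replicate block called 3. The labels do not say that the numbers mark pairs, and same-numbered libraries deviated together from their group means (correlation 0.619). With the replicate block the log2 fold changes were -2.13 for he1.1, -2 for he1.2, -0.6 for c6ast4 and -0.19 for c6ast3 (edgeR adjusted p = 0.817, 0.863, 0.863 and 0.989). Over single libraries left out, he1.1 ranged from -6.52 to 0.79, he1.2 from -6.26 to 0.46, c6ast4 from -4.47 to 3.34 and c6ast3 from -1.42 to 1.89; ctslb ranged from -12.4 to 1.71, agr2 from -0.54 to 0.24, sec61a1 from -0.26 to 0.061, prdm1a from -0.39 to 0.19, MEP1B from -1.64 to 1.57, bmp1a from -0.44 to 0.199, ctsba from -0.52 to 0.033 and ctss2.1 from -0.024 to 0.82. Leaving out 1 library mixes genotype with replicate number. limma-voom gave 0.11 for c6ast3; the cause was not tested. Between replicate numbers, the call of c6ast3 was lost with DESeq2 (-2.38), and those of he1.1 (3.69) and he1.2 (3.23) without the genotype term; the cause was not tested. c6ast4 was called under all 6 alternatives run. Under the filter of 5 CPM he1.2 and c6ast3 were not tested. No library could be left out of the replicate number fit, since no residual degrees of freedom remain. Counts of 2 to 13 limit he1.2, he1.1 and c6ast3 in single libraries.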

Other observations

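Cathepsins other than those of the hatching gland had several patterns over the libraries, without a call between genotypes for any of the 15 measured of 17 listed (median log2 fold change -0.15, edgeR). ctsla, coding for a lysosomal cathepsin L, was at 1427, 1535, 646 and 1270 CPM in sibling 3, sibling 4, knockout 3 and knockout 4 (-0.63 ± 0.36, adjusted p = 1). ctsz and ctsba, lysosomal cathepsins Z and B, were at -0.22 ± 0.17 and -0.27 ± 0.26, and ctss2.1, a cathepsin S gene, at 0.37 ± 0.42 (adjusted p = 1 for each).

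Between replicate numbers edgeR called 3 cathepsin genes lower and 2 higher in number 4, against 8.16% and 6.99% of all features. ctsbb, a second cathepsin B gene, was at 17.7, 0.127, 16 and 0.29 CPM in the same library order (-6.29 ± 0.31, adjusted p = 0.00289), the same order of numbers as c6ast4. Its levels in sibling 4 and knockout 4 rest on 4 and 10 counts, so this standard error is smaller than counting error alone and overstates the precision. ctsl.1 (-1.98 ± 0.26, adjusted p = 0.0157) and ctsh (-1.07 ± 0.13, adjusted p = 0.0132) were also lower, and ctsd, coding for the lysosomal aspartic protease cathepsin D, was higher (0.73 ± 0.09, adjusted p = 0.0142), as was ctss2.2.

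The neutrophil list had 0 of 5 members called by edgeR between genotypes and summed to 133, 119, 193 and 139 CPM in sibling 3, sibling 4, knockout 3 and knockout 4. All 5 were higher in the knockout within both numbers, as were 4886 of all 19924 features. For 3 of the 5, both knockout libraries lay above both sibling libraries, as for 1737 of all features. Between replicate numbers edgeR called 1 member, mmp9, lower in number 4 (-0.79 ± 0.11, adjusted p = 0.018) and 0 higher. The macrophage list summed to 19.8 to 24 CPM, with 0 of 3 members called in either comparison. Over all features edgeR called 0 between genotypes, and 6.99% higher and 8.16% lower in number 4.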
